A study of Rattus norvegicus with 15 samples.

Results

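Ribosomal protein transcripts of the cytosolic ribosome were followed in RNA from dorsal CA1 of rat hippocampus. The members were the genes of the deposited count table whose symbol names a protein of the large (Rpl) or small (Rps) subunit and whose mean level over all libraries was at least 1 CPM, that is, counts scaled to the library total. Of the 22314 genes in the table, 81 symbols matched the pattern and 70 were members, 40 of the large and 30 of the small subunit. All 70 passed the filter on low counts and were tested among 14880 genes.

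All animals were wild-type male Sprague-Dawley rats of 8 to 9 weeks, and all received an Accell siRNA, a modified siRNA taken up without a transfection reagent, by stereotaxic injection into dorsal CA1. The group Rnf20-siRNA-Trained was labelled with siRNA against Rnf20, a ubiquitin ligase for histone H2B, and was trained in contextual fear conditioning 5 days later (replicates 4, 8, 14, 18 and 20). The group Scr-siRNA-Trained was trained likewise after a scrambled control siRNA (replicates 5, 6, 10, 15 and 16), and the group Scr-siRNA-Naive received the scrambled siRNA without training (replicates 1, 2, 9, 11 and 12). Each group held 5 libraries of tissue with all brain cell types. Whether each library is a separate animal is not stated, and p-values here measure only the spread between these libraries.

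Total counts ran from 12537250 to 20644425 per library, and mitochondrially encoded transcripts took 8.47% to 13.3% of them. Rnf20, the gene named by the siRNA label, was at 42.0 ± 2.32 CPM in libraries labelled Rnf20 siRNA, 43.2 ± 5.39 CPM in scrambled trained and 41.8 ± 2.28 CPM in naive libraries (SD, n = 5 each), so the group means differed by less than the spread between libraries. Between the trained groups its log2 fold change was -0.04 (SE 0.08; edgeR adjusted p = 0.945), and the group is called by its label below. Markers of CA1 pyramidal neurons had summed levels of 507 to 914 CPM under the Rnf20 label, 280.5 to 1592 CPM in scrambled trained and 487 to 1042 CPM in naive libraries. Wfs1 and Mpped1 took most of this sum, with 98311 and 60789 counts over all libraries. Spink8, of the same list, had 49 and did not pass the filter on low counts.

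Cytosolic ribosomes carry out protein synthesis, and each holds a single copy of nearly every ribosomal protein around its rRNAs. In vertebrates most mRNAs of these proteins begin with a cytidine followed by a run of pyrimidines, the 5′ terminal oligopyrimidine (TOP) motif, through which mTORC1 and the protein LARP1 set their translation together. In neurons these mRNAs are also found in dendrites and axons. Contextual fear memory is known to need new protein synthesis in the hippocampus, which is why the transcripts of the ribosome are of interest in this tissue.

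The pyrimidine run was looked for in promoters of RefSeq (assembly GRCr8, 250 bases before to 50 after each gene's start), which hold 55 of the 70 members. The counts themselves were made on the older assembly Rnor_6.0, so the coordinates below belong to the printed sequences only. Shown here, from 25 bases before to 25 bases after the annotated start, are example members, with the longest run of C and T near the start in capitals. Rplp1, Rpl19, Rpl31, Rps27 and Rps9 carry a run of at least 8 bases, and the paralogues Rps27l, Rpl7l1 and Rpl22l1 do not. The run does not set paralogues apart among all members. Rps4y2, a copy of Rps4x, has a run of 8 bases, and in Rpl11, Rpl41 and Rps12 the longest run is 3 bases.
Rplp1: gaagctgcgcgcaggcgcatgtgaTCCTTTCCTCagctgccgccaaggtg
Rpl19: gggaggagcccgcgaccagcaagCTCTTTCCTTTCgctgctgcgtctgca
Rpl31: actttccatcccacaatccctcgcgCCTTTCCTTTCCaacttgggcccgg
Rps27: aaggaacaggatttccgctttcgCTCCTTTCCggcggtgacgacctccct
Rps9: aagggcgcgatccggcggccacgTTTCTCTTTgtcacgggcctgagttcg
Rps27l: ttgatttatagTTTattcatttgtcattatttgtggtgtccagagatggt
Rpl7l1: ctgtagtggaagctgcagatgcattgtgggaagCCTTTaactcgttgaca
Rpl22l1: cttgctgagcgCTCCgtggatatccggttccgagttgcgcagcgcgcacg

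In GRCr8 these stretches are Rplp1 at chr8:71290848-71290897 (minus strand), Rpl19 at chr10:83519039-83519088 (plus), Rpl31 at chr9:49143086-49143135 (plus), Rps27 at chr2:177964582-177964631 (minus) and Rps9 at chr1:74430413-74430462 (minus). The paralogues are Rps27l at chr8:76443633-76443682 (plus), Rpl7l1 at chr9:21695693-21695742 (plus) and Rpl22l1 at chr2:113683171-113683220 (plus).

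Most members shared the run. A run of at least 8 pyrimidines that touched the 15 bases on either side of the start stood in 40 of 55 members (72.7%), against 1817 of 10896 tested genes with a promoter (16.7%) and 17.1% of all 33469 promoters. The longest run had a median length of 10 bases in members and 5 bases in tested genes. The stricter form, a C at the annotated start followed by at least 4 pyrimidines, was found in 17 members (30.9%), against 2.81% of tested genes and 2.63% of all promoters, and it depends on the start being annotated to the base.

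Motifs were searched on both strands over the 300 bases. CCGGAA, the core bound by ETS factors, stood in 49.1% of members, 25.8% of tested genes and 15% of all promoters. AGATGGC, the core bound by YY1, stood in 14.5% of members, 7.64% of tested genes and 6.5% of all promoters, and TATAAA in 12.7%, 6.92% and 14.2%. GGGCGG, the GC box, was at 58.2%, 61.1% and 33.1%, and CACGTG, the E-box, at 7.27%, 9.14% and 6.42%. These are matches of letters, and no test was made of them.

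Taken as a share of all reads, the members varied within groups by more than the groups' means differed. They held 1.42%, 1.66%, 1.26%, 2.26% and 1.54% of the counts in libraries labelled Rnf20 siRNA (replicates 4, 8, 14, 18 and 20). They held 1.54%, 1.35%, 2.13%, 1.81% and 2.00% in scrambled trained libraries (5, 6, 10, 15 and 16). They held 1.33%, 1.58%, 1.49%, 1.77% and 1.35% in naive libraries (1, 2, 9, 11 and 12). The highest library of all was replicate 18 under the Rnf20 label and the lowest was replicate 14 of the same group, and the 3 groups overlapped. The means were 1.63% ± 0.383 under the Rnf20 label, 1.77% ± 0.320 in scrambled trained and 1.502% ± 0.179 in naive libraries (SD, n = 5 each). The 95% Wilson interval of a library's share was within 0.00735 percentage points of it and covers counting error only, since PCR copies are not told apart. In bulk tissue, fewer cells of a type and less RNA per cell cannot be told apart.

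Both subunits varied with the same libraries. Large subunit members took 0.939% ± 0.207 of the counts under the Rnf20 label, 1.02% ± 0.171 in scrambled trained and 0.870% ± 0.0969 in naive libraries. Small subunit members took 0.689% ± 0.177, 0.749% ± 0.150 and 0.632% ± 0.0820 in the same order of groups. The count of large subunit members per count of small subunit members was 1.37 ± 0.0452 under the Rnf20 label, 1.37 ± 0.0538 in scrambled trained and 1.38 ± 0.0272 in naive libraries. Its lowest values, 1.31 and 1.27, were in Rnf20-labelled replicate 18 and scrambled trained replicate 10, the libraries with the 2 highest shares.

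**Figure D1:**
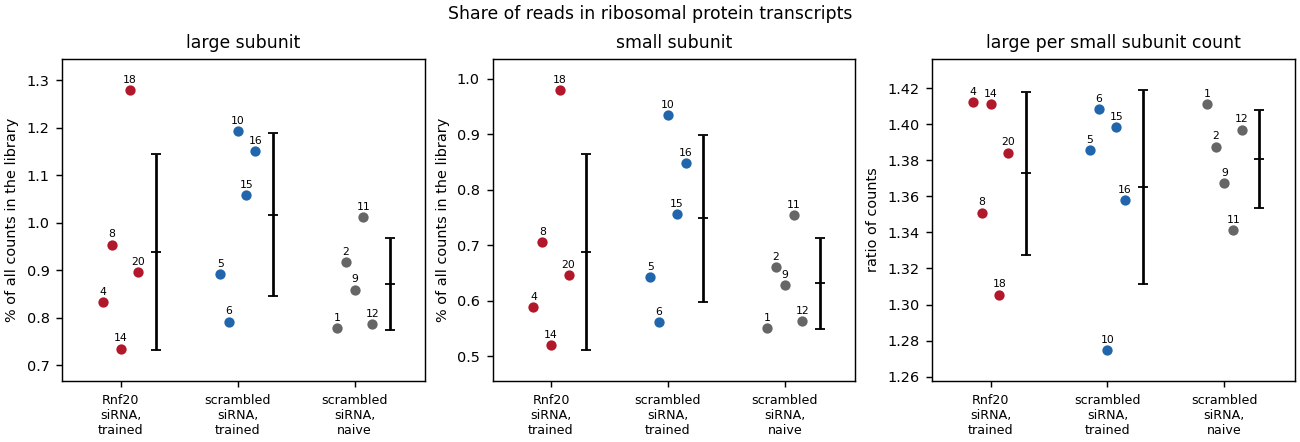
Share of all counts in large subunit members (left) and small subunit members (middle), in percent, and large subunit counts per small subunit count (right), for libraries labelled Rnf20 siRNA and trained (red), scrambled siRNA and trained (blue) and scrambled siRNA and naive (grey). Points are libraries with their replicate numbers and bars are the mean ± SD (n = 5); replicate 18 under the Rnf20 label holds the highest share in both subunits and the groups overlap in every panel.

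Between the trained groups, libraries labelled Rnf20 siRNA against scrambled siRNA, 0 of 70 members passed edgeR's quasi-likelihood F test at an adjusted p under 0.05, where the background over all genes tested was 0%. At an unadjusted p under 0.05, 0 members were lower and 0 higher, against 2.98% and 2.63% of all genes. The groups did not overlap for 0 members, against 0.262% of genes lower and 0.397% higher. DESeq2 called 0 members after adjustment, against 1 gene over all (0.00672%). It gave 0 members at an unadjusted p under 0.05, against 3.15% of its genes higher and 3.5% lower. With limma-voom 0 members passed after adjustment and 0 without it, against 0% of its genes after adjustment and 2.84% higher and 3.25% lower without it. The median log2 fold change was -0.09 for members, -0.08 for the large and -0.09 for the small subunit, against 0.00 for all genes, and 6 of 70 members were above 0, against 50.7% of all genes. The median 95% interval of a member ran from -0.40 to 0.23, and for 54 of 70 members it lay within 0.5 of 0.

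The median stayed below 0 whichever library was left out, but its size depended on single libraries. The median was -0.22 without Rnf20-labelled replicate 18 and -0.17 without scrambled trained replicate 6. It was -0.05 without Rnf20-labelled replicate 4, -0.02 without replicate 14 and -0.06 without replicate 20. Among scrambled trained libraries, leaving out replicate 10 gave -0.02 and leaving out replicate 16 gave -0.03. The 6 members above 0 became 2 without Rnf20-labelled replicate 18 or scrambled trained replicate 6. Their number was 10 without Rnf20-labelled replicate 4 or 20 and 25 without replicate 14. It was 23 when scrambled trained replicate 10 was left out and 20 when replicate 16 was. Without Rnf20-labelled replicate 18, 10 members were lower at an unadjusted p under 0.05, where 8.5% of all genes in that fit were, and 0 passed after adjustment by edgeR.

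After contextual fear conditioning under scrambled siRNA, 0 of 70 members passed edgeR's test after adjustment, against a background of 0%. Members lay above 0 nearly throughout: 69 of 70 had a log2 fold change above 0, against 47.2% of all genes tested, with a median of 0.20 for members, 0.18 for the large and 0.22 for the small subunit and -0.01 for all genes. At an unadjusted p under 0.05, 5 members were higher (7.14%, against 6.62% of all genes) and 0 lower (against 3.35%), and 0 members had groups that did not overlap (against 1.1% of genes higher and 0.659% lower). DESeq2 called 0 members after adjustment, against 58 genes over all (0.39%), and gave 6 members higher at an unadjusted p under 0.05, against 7.17% of its genes. With limma-voom 0 members passed after adjustment and 5 were higher without it, against 0% and 5.65% of its genes. The median 95% interval of a member ran from -0.11 to 0.50.

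The count of 5 moved with single libraries: it was 19 without scrambled trained replicate 6, 15 without Rnf20-labelled replicate 18 and 11 without naive replicate 11. In those fits 7.97%, 8.33% and 6.59% of all genes were higher at the same threshold. It was 3 without scrambled trained replicate 10, 15 or 16, where 4.83%, 3.62% and 6.44% of all genes were higher. It was 2 without naive replicate 2 or 9 (5.72% and 5.21% of all genes) and 1 without naive replicate 1 (4.81%). The 2 contrasts share the scrambled trained libraries, so a high level in those libraries lifts the members after training and lowers them under the Rnf20 label by construction.

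For trained libraries labelled Rnf20 siRNA against naive libraries, which share a group with each of the other comparisons, 0 of 70 members passed edgeR's test, against a background of 0%. The median was 0.11 for members, 0.10 for the large and 0.11 for the small subunit, and 68 of 70 members were above 0, against 50.6% of all genes. At an unadjusted p under 0.05, 4 members were higher (5.71%, against 1.21% of all genes) and 0 lower (against 1.09%), and 0 had groups without overlap, against 0.249% of genes in each direction. These values rested on 1 library: without Rnf20-labelled replicate 18 the median was -0.01, 27 members were above 0 and 0 had an unadjusted p under 0.05. In that fit 1.21% of all genes were higher. The 4 became 2 without Rnf20-labelled replicate 8 or naive replicate 2 or 9 (0.839%, 1.22% and 1.1% of all genes), and 1 without naive replicate 1 (1.03%). With all 15 libraries, only 1 of the 4 was among the 66 members of at least 10 CPM, against 1.21% of all genes. The F test for any difference among the 3 groups gave 0 members after edgeR's adjustment and 3 (4.29%) at an unadjusted p under 0.05, against 6.44% of all genes.

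**Figure D2:**
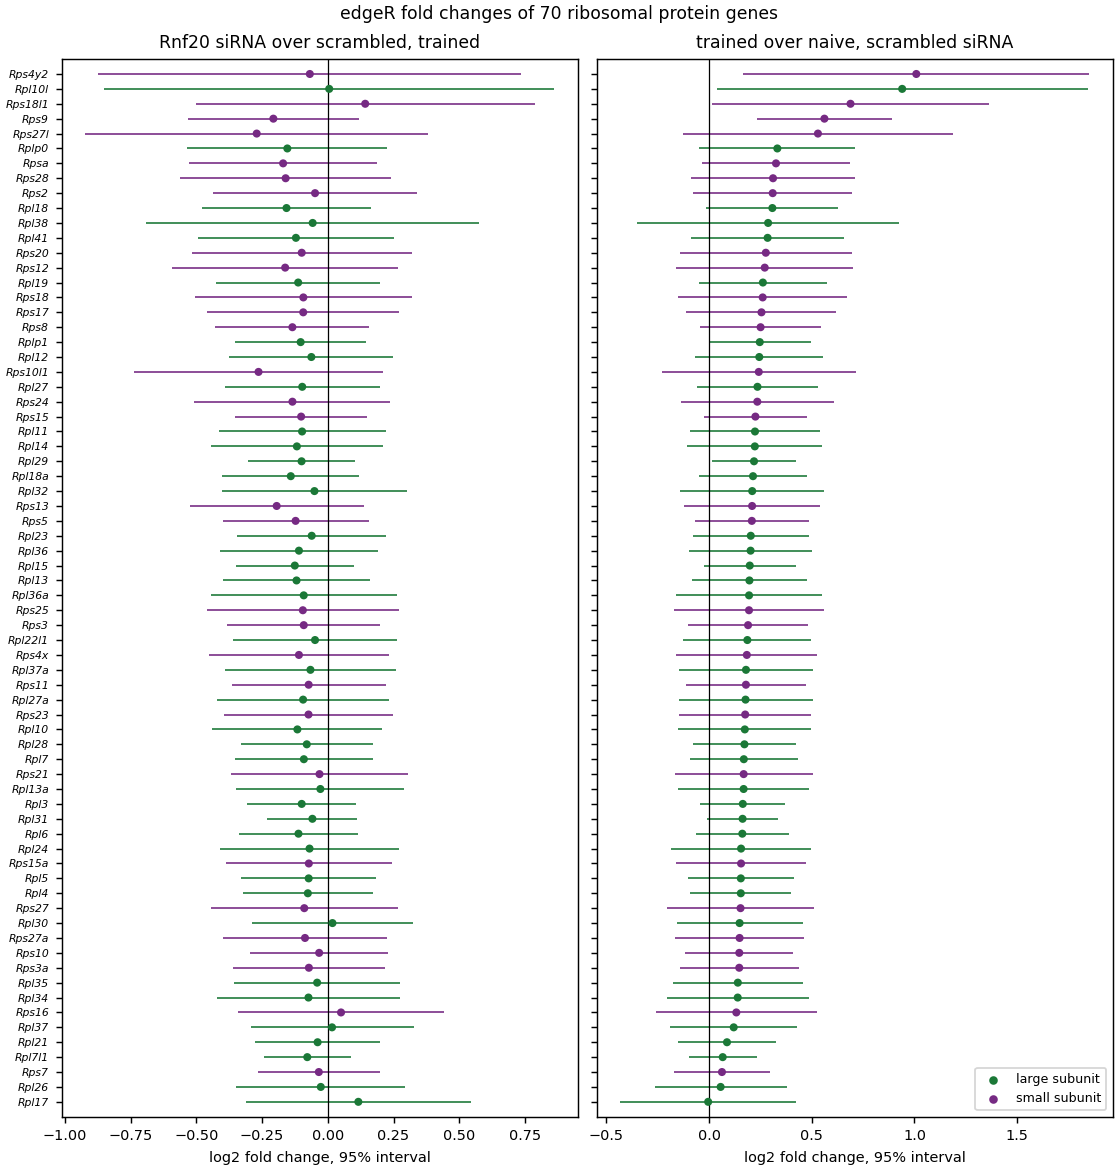
Log2 fold change (x axis, points) and 95% interval (lines) of each member from edgeR, in libraries labelled Rnf20 siRNA over scrambled siRNA, both trained (left), and in trained over naive libraries, both with scrambled siRNA (right); green marks large and purple small subunit members, ordered by the fold change after training. On the right 69 of 70 points lie above 0 and on the left 6 of 70 do, with most intervals crossing 0 in both panels.

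Markers of other cells varied between the same libraries. The summed level of 16 reactive glia genes was 2467 to 8693 CPM under the Rnf20 label, 4518 to 9925 CPM in scrambled trained and 3217 to 4831 CPM in naive libraries. Their median fold change on the log2 scale was -0.85 under the Rnf20 label, where 1 of 16 genes lay above 0, and 1.31 after training, where 15 of 16 did. In the 3 libraries with the highest sums, Rnf20-labelled replicate 18 and scrambled trained replicates 10 and 15, the median member lay 0.54, 0.42 and 0.19 log2 units above the naive mean. The order of libraries was not the same for both: scrambled trained replicate 16, with 6985 CPM, was at 0.42, and replicate 6, with 5993 CPM and so above every naive library, was at -0.15. Gfap took most of this sum, with 1011647 counts over all libraries against 96502 for Vim, the next gene. The mean log2 CPM of these genes, called the reactive glia score, weighs them equally. By that score replicate 6 was at 4.56, only slightly above the highest naive library at 4.40. Pan-neuronal markers moved the other way, with 0 of 10 above 0 after training (median -0.20) and 10 of 10 under the Rnf20 label (median 0.13), and summed levels of 5275 to 9256 CPM, 4656 to 8201 CPM and 6752 to 8195 CPM in the same order of groups. With the reactive glia score as a covariate, an alternative chosen after seeing the data, the members' median was -0.05 after training, with 15 of 70 above 0, and 0.13 under the Rnf20 label, with 67 of 70 above 0. With 1 surrogate variable it was 0.05 after training and 0.09 under the Rnf20 label.

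Microglia markers were at 773 to 1998 CPM summed under the Rnf20 label, 992 to 2154 CPM in scrambled trained and 874 to 1525 CPM in naive libraries. Under the Rnf20 label 1 of 14 microglia markers was above 0 (median -0.40), 1 of 7 leukocyte markers (median -0.38) and 0 of 6 blood transcripts (median -0.999). After training 13 of 14, 7 of 7 and 6 of 6 were above 0, with medians of 0.53, 1.20 and 2.13. Oligodendrocyte markers were above 0 in 9 of 10 under the label (median 0.13) and 0 of 10 after training (median -0.26), and astrocyte markers in 6 of 9 (median 0.07) and 3 of 9 (median -0.06). Choroid plexus markers were above 0 in 1 of 10 under the label (median -0.27) and 0 of 10 after training (median -0.92), and endothelial markers in 3 of 6 (median 0.00) and 0 of 6 (median -0.20). CA1 pyramidal neuron markers were above 0 in 1 of 6 under the label (median -0.27) and 4 of 6 after training (median 0.12). No marker was at 0 counts over all libraries, and 0 markers passed edgeR's test after adjustment in any contrast.

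The members varied together from library to library inside each group. In the plot of all members by library, Rnf20-labelled replicate 18 had the highest level of its group for 68 of 70 members and the highest of all 15 libraries for 51. Replicate 14 of that group was lowest of the group for 61 members, and of all libraries for 34. Among scrambled trained libraries replicate 6 was lowest for 64 members, and replicates 10 and 16 were highest for 36 and 31. Among naive libraries replicate 11 was highest for 62, and replicates 12 and 1 were lowest for 36 and 29. The median member of replicate 18 lay 0.54 log2 units above the naive mean, and the median member of replicate 14 lay at -0.20.

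**Figure D3:**
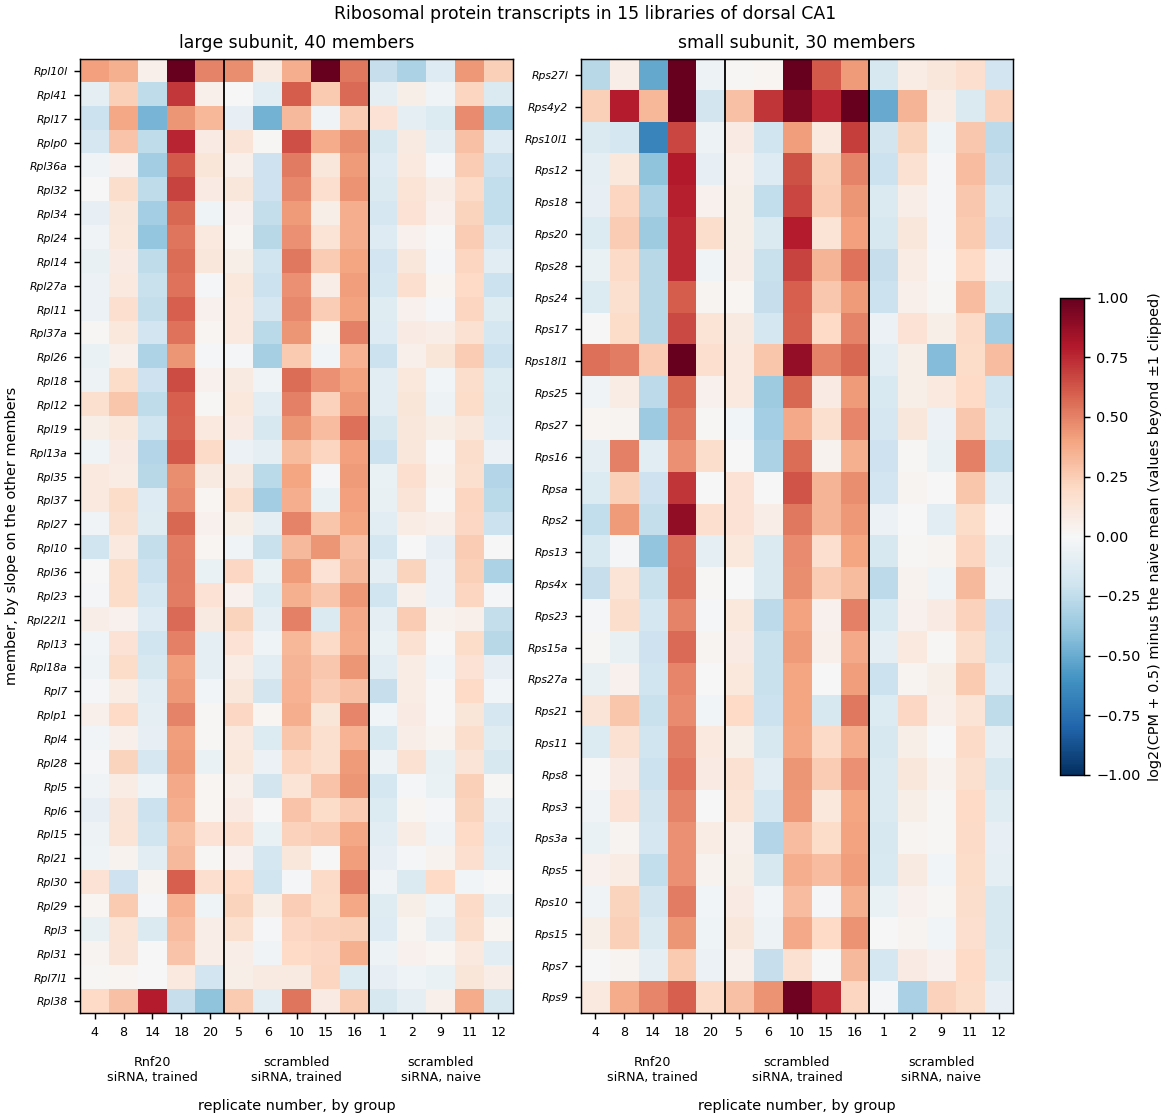
Log2(CPM + 0.5) of each member minus its naive mean (colour, clipped at ±1) in each library, for large subunit members (left) and small subunit members (right), with libraries grouped as Rnf20 siRNA trained, scrambled siRNA trained and scrambled siRNA naive and members ordered by slope on the other members. Whole columns are red or blue: replicate 18 is highest of its group for 68 of 70 members, while the rows of Rpl7l1, Rpl38 and Rps9 follow the columns less.

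After the group means were taken out, 1 principal component held 76.8% of the members' variance, against 38.6% for all genes tested. These shares are not like for like, since 70 genes of 1 complex are set beside 14880 genes of mixed level and function. The first component of the members held 71.6% without the 4 libraries farthest out on the first component of all genes (scrambled trained replicates 10 and 15, Rnf20-labelled replicates 14 and 18). Leaving out these 4 libraries was an alternative chosen after seeing the data. The slope of each member on the mean of the others, within groups, is summarised for the 66 members of at least 10 CPM, and 63 of them had a slope above 0.5. The median slope was 0.986 in the large and 1.12 in the small subunit, and 0.960 and 1.07 without the 4 libraries. These slopes are across 15 libraries that share their group means and scaling, and they carry no test. Of those with a promoter sequence, 38 with the pyrimidine run had a median slope of 1.02 and 15 without it had 1.05.

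Among these 66, the steepest slopes belonged to small subunit members: 1.99 for Rps27l, 1.56 for Rps10l1, 1.48 for Rps12, 1.43 for Rps18, 1.42 for Rps20 and 1.39 for Rps28. The slope of Rps27l was 0.942 without the 4 libraries. The steepest were then Rps16 at 1.60, Rps10l1 at 1.53 and Rpl17, of the large subunit, at 1.48, so the order depended on those libraries. With all 15 libraries the flattest were Rpl7l1 at 0.0494, Rps9 at 0.351, Rpl31 at 0.468, Rpl3 at 0.526, Rpl29 at 0.536 and Rpl30 at 0.553. Without the 4 libraries Rps9 was at -0.0453 and Rpl7l1 at -0.156, and 64 of 66 slopes were above 0.5.

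**Figure D4:**
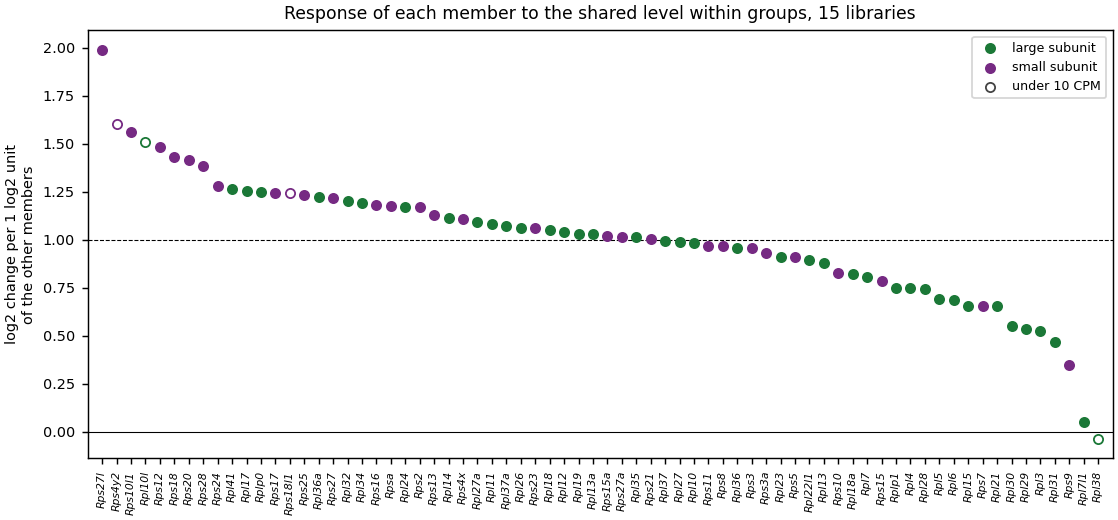
Within-group slope of each member on the mean of the other members (y axis, log2 change per log2 unit) for 15 libraries, ordered from steep to flat; green marks large and purple small subunit members, open points are below 10 CPM and the dashed line marks a slope of 1. Most points lie between 0.5 and 1.5, Rps27l stands at 1.99 and Rps9 and Rpl7l1 stand at 0.351 and 0.0494.

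The P stalk, which recruits translation factors to the large subunit, was followed through Rplp0 and Rplp1. Rplp0 was at 483, 664, 455, 921 and 575 CPM in libraries labelled Rnf20 siRNA, 595, 549, 849, 703 and 750.0 CPM in scrambled trained and 487, 578, 509.5, 665 and 497 CPM in naive libraries. Replicate 18 was the highest of all and the groups overlapped. Its log2 fold change was -0.15 (SE 0.18; edgeR adjusted p = 0.899) under the Rnf20 label and 0.33 (SE 0.18; edgeR adjusted p = 0.554) after training. Rplp1 averaged 357 ± 60.3 CPM under the Rnf20 label, 384 ± 50.1 CPM in scrambled trained and 323 ± 24.8 CPM in naive libraries, with fold changes of -0.10 and 0.25 on the log2 scale. Rplp2, the other stalk protein, had 0 counts in every library.

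Rpl5 and Rpl11 bind the 5S rRNA as a particle that, when free of the ribosome, inhibits Mdm2 and so stabilises p53. Rpl5 was at 332, 359, 329.9, 443 and 345 CPM under the Rnf20 label, 352, 300.2, 373, 414 and 463 CPM in scrambled trained and 301, 338, 324, 401 and 344 CPM in naive libraries. The groups overlapped, with replicate 16 the highest of the scrambled trained libraries and replicate 6 the lowest of all. Rpl5 had log2 fold changes of -0.07 (SE 0.12) under the Rnf20 label and 0.15 (SE 0.12) after training, and Rpl11 of -0.10 (SE 0.15) and 0.22 (SE 0.15). Of 15 p53 target genes, 11 were above 0 after training (median 0.25) and 3 under the Rnf20 label (median -0.12). Among them Bax, a promoter of apoptosis, was at 30.4 ± 5.04 CPM under the Rnf20 label, 32.3 ± 4.60 CPM in scrambled trained and 26.5 ± 2.96 CPM in naive libraries.

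Around the peptidyl transferase centre and the exit tunnel of the large subunit, log2 fold changes after training were 0.16 (SE 0.10) for Rpl3, 0.17 (SE 0.15) for Rpl10 and 0.15 (SE 0.12) for Rpl4, and under the Rnf20 label -0.10, -0.12 and -0.08. By reads, not corrected for length, Rpl4, Rplp0 and Rpl3 took the most of all members, averaging 649.6, 619 and 566 CPM over the 15 libraries. Rpl17 and Rpl26 sit at the tunnel exit. Rpl17 was at 170.1, 259, 143, 269 and 249 CPM under the Rnf20 label, 187, 142, 247, 193 and 236 CPM in scrambled trained and 219, 184, 179.8, 274 and 152 CPM in naive libraries. It had the lowest fold change of all members after training, 0.00 (SE 0.20; edgeR adjusted p = 0.996), and 0.12 (SE 0.20) under the Rnf20 label, where leaving out a library gave values between 0.01 (without scrambled trained replicate 6) and 0.23 (without Rnf20-labelled replicate 14). Rpl26 and Rps7, a small subunit protein, came next after training, at 0.06 each, and lay below 0 without scrambled trained replicate 16, at -0.02 and -0.01.

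In the small subunit, Rpsa, also known as the laminin receptor, and Rps2, which lies at the mRNA entry, had log2 fold changes after training of 0.33 (SE 0.17) and 0.31 (SE 0.18). Rpsa was at 451, 585, 429, 813 and 495 CPM under the Rnf20 label, 548, 497, 766, 625 and 682 CPM in scrambled trained and 433, 504, 492, 599 and 459 CPM in naive libraries. The trained groups reached higher than the naive group in their highest libraries and overlapped it in the others. Rps27a, made as a fusion with ubiquitin, averaged 369 ± 72.1 CPM under the Rnf20 label, 392 ± 72.3 CPM in scrambled trained and 354 ± 45.7 CPM in naive libraries. Rps25, which some viral mRNAs need to recruit ribosomes, averaged 250.3 ± 57.5 CPM, 267 ± 64.3 CPM and 234 ± 27.2 CPM in the same order. Rps16 and Rps13 stood near the ends of the lists: Rps16 was at 0.05 (SE 0.18) under the Rnf20 label, between -0.05 and 0.18 with a library left out, and Rps13 was at -0.19 (SE 0.16) under the Rnf20 label and 0.02 (SE 0.16) between trained Rnf20-labelled and naive libraries.

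Rps9, which lies at the mRNA entry beside Rps2, had the smallest p of all members and did not follow the others. It was at 22.9, 27.9, 30.2, 32.6 and 24.6 CPM under the Rnf20 label, 26.4, 29.3, 42.5, 36.3 and 24.9 CPM in scrambled trained and 21.2, 17.0, 25.2, 24.4 and 20.2 CPM in naive libraries. Scrambled trained replicates 10 and 15 were the highest of all, and the lowest scrambled trained library lay inside the naive range. After training the log2 fold change was 0.56 (SE 0.15; unadjusted p = 0.00226; edgeR adjusted p = 0.379). Under the Rnf20 label it was -0.21 (SE 0.15; edgeR adjusted p = 0.843), and against naive libraries 0.35 (SE 0.15; unadjusted p = 0.0358; edgeR adjusted p = 1.00). Without scrambled trained replicate 10 the value under the Rnf20 label was -0.07, and without the 4 libraries named above the change after training was 0.32. Over the 15 libraries Rps9 averaged 27.1 CPM, where Rps2 averaged 428 CPM. How reads with several matches were counted is not given, and whether the counts of Rps9 cover its mRNA fully was not tested.

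Rpl29, a large subunit protein at the surface, was the other member above 10 CPM with an unadjusted p under 0.05 after training. It averaged 238 ± 30.1 CPM under the Rnf20 label, 255 ± 20.7 CPM in scrambled trained and 219 ± 19.6 CPM in naive libraries, with a log2 fold change after training of 0.22 (SE 0.10; unadjusted p = 0.0375; edgeR adjusted p = 0.467). Rpl38, tied in mouse to the translation of Hox mRNAs, was counted at 1.32 ± 0.606 CPM under the Rnf20 label, 1.36 ± 0.312 CPM in scrambled trained and 1.11 ± 0.271 CPM in naive libraries. At 10 to 31 reads a library its log2 fold change of 0.29 after training had an SE of 0.30.

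Paralogues and gene copies are less well known than the parent genes, and some stand for tissue-specific ribosomes. Reads of near-identical copies may be split between genes or dropped in ways the sources do not state, so their levels are uncertain, and RefSeq lists Rps10l1 as a pseudogene. Of the 5 members with an unadjusted p under 0.05 after training, 3 were such copies near the threshold of 1 CPM, Rps4y2, Rpl10l and Rps18l1. Rps4y2, a copy of Rps4x, was at 1.22, 2.02, 1.33, 4.12 and 0.779 CPM under the Rnf20 label, 1.29, 1.90, 2.29, 1.96 and 2.54 CPM in scrambled trained and 0.529, 1.35, 1.03, 0.816 and 1.21 CPM in naive libraries. Only scrambled trained replicate 5 fell inside the naive range. Its log2 fold change was 1.01 (SE 0.40; unadjusted p = 0.0212; edgeR adjusted p = 0.423) after training and -0.07 (SE 0.38) under the Rnf20 label.

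Rpl10l, a copy of Rpl10 that in mouse is used in male germ cells, was at 1.11, 1.04, 0.750, 2.89 and 1.20 CPM under the Rnf20 label, 1.16, 0.784, 1.06, 2.70 and 1.24 CPM in scrambled trained and 0.529, 0.468, 0.606, 1.13 and 0.926 CPM in naive libraries. Replicates 18 and 15 stood far above the others of their groups. Its log2 fold change after training was 0.94 (SE 0.42; edgeR adjusted p = 0.473), and 0.55 without scrambled trained replicate 15. Rps18l1 averaged 1.497 ± 0.636 CPM under the Rnf20 label, 1.36 ± 0.388 CPM in scrambled trained and 0.847 ± 0.253 CPM in naive libraries, with log2 fold changes of 0.69 (SE 0.32; edgeR adjusted p = 0.485) after training and 0.83 (SE 0.32; edgeR adjusted p = 1.00) for Rnf20-labelled against naive libraries. Against naive libraries it was 0.55 without Rnf20-labelled replicate 18. Each of these genes had 8 to 67 reads a library. Just outside the threshold lay Rps29 at 0.671 CPM and Rpl3l at 0.357 CPM, and just inside lay Rpl10l at 1.19 CPM and Rps18l1 at 1.24 CPM, means scaled by total counts.

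Ratios of a copy to its parent gene do not depend on library scaling. For Rps4y2 per 100 counts of Rps4x the means were 0.485 ± 0.210 under the Rnf20 label, 0.506 ± 0.0963 in scrambled trained and 0.286 ± 0.0944 in naive libraries. Over 6 pairs and 3 contrasts, 0 of 18 two-sided exact permutation tests had an adjusted p under 0.05, and 3 had an unadjusted p under 0.05. The log2 ratio differed by 0.84 for Rps4y2 to Rps4x after training (exact permutation p = 0.0159, adjusted p = 0.143). It differed by 0.79 for Rpl10l to Rpl10 and by 0.65 for Rps18l1 to Rps18 between trained Rnf20-labelled and naive libraries (exact permutation p = 0.0238 and adjusted p = 0.143 each). With 5 libraries against 5 the smallest p such a test can give is 0.00794. The count of 3 was 1 without Rnf20-labelled replicate 4 and 5 without naive replicate 12.

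Rps27l, the paralogue of Rps27 and in human cells a p53 target, was at 11.9, 15.3, 10.1, 36.1 and 14.0 CPM under the Rnf20 label, 14.7, 14.8, 34.0, 22.5 and 19.7 CPM in scrambled trained and 13.0, 15.3, 15.8, 16.4 and 12.7 CPM in naive libraries. Replicates 18 and 10 were more than 1.5 times as high as the next library of all, while the naive libraries lay close together. Its log2 fold change was 0.53 (SE 0.31; edgeR adjusted p = 0.595) after training and 0.30 without scrambled trained replicate 10. Under the Rnf20 label it was -0.27 (SE 0.31; edgeR adjusted p = 0.895), the lowest of all members. It was -0.73 without Rnf20-labelled replicate 18, -0.16 without replicate 4, -0.13 without replicate 14 and -0.02 without scrambled trained replicate 10. Per 100 counts of Rps27 it stood at 10.5 ± 3.56 under the Rnf20 label, 12.6 ± 3.23 in scrambled trained and 9.75 ± 0.731 in naive libraries.

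Rpl7l1, a paralogue of Rpl7 whose yeast relative works in ribosome assembly, was the steadiest member. It was at 32.3, 32.4, 32.0, 34.4 and 28.0 CPM under the Rnf20 label, 33.3, 34.1, 34.1, 37.3 and 29.1 CPM in scrambled trained and 30.2, 31.2, 30.5, 35.0 and 33.6 CPM in naive libraries. Replicate 18 stood only slightly above its group, where Rpl7 in the same library was at 496 CPM against 338 to 385 CPM in the rest of the group. The log2 fold change of Rpl7l1 was -0.08 (SE 0.08) under the Rnf20 label and 0.07 (SE 0.08) after training. Rpl22l1, the paralogue of Rpl22, averaged 71.6 ± 14.1 CPM under the Rnf20 label, 74.1 ± 14.6 CPM in scrambled trained and 65.1 ± 8.35 CPM in naive libraries. Rps10l1 averaged 13.5 ± 5.03 CPM, 16.3 ± 4.10 CPM and 13.8 ± 2.37 CPM in the same order, with a log2 fold change of -0.26 (SE 0.22) under the Rnf20 label. That of Rps10l1 was -0.52 without Rnf20-labelled replicate 18, -0.14 without replicate 14 and -0.12 without scrambled trained replicate 16.

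**Figure D5:**
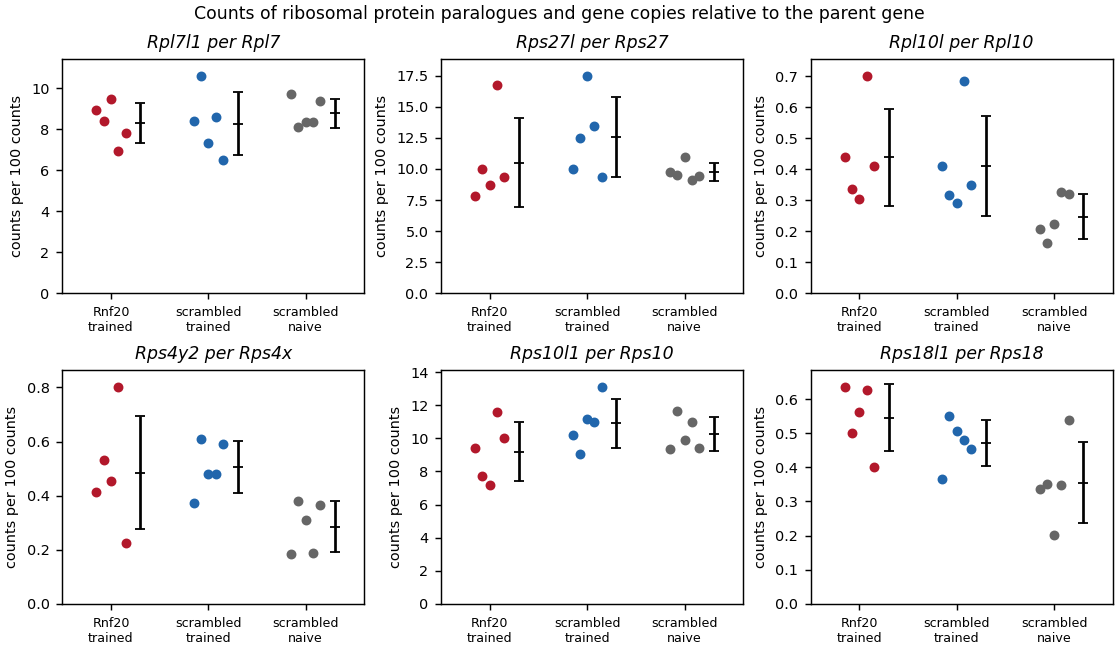
Counts of a paralogue or gene copy per 100 counts of its parent gene (y axis, from 0) for 6 pairs in libraries labelled Rnf20 siRNA and trained (red), scrambled siRNA and trained (blue) and scrambled siRNA and naive (grey), with the mean ± SD (n = 5) beside the points. Rps27l per Rps27 spreads from 7.85 to 16.7 under the Rnf20 label and from 9.08 to 11.0 in naive libraries, and Rps4y2 per Rps4x is 0.506 in scrambled trained against 0.286 in naive libraries on average.

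Of 64 tested genes of ribosome assembly and rRNA processing, 6 were above 0 under the Rnf20 label (median -0.08) and 58 after training (median 0.09), with 9 higher at an unadjusted p under 0.05 after training (against 6.62% of all genes) and 0 after edgeR's adjustment. For Rnf20-labelled against naive libraries 33 of 64 were above 0 (median 0.01), where 68 of 70 members were. Pno1, an assembly factor of the small subunit, was at 20.9 ± 2.24 CPM under the Rnf20 label, 23.6 ± 1.78 CPM in scrambled trained and 18.7 ± 1.28 CPM in naive libraries (0.33 after training, SE 0.09; edgeR adjusted p = 0.379). Nop58, a core protein of box C/D particles that methylate rRNA, was at 30.4 ± 1.60 CPM under the Rnf20 label, 37.4 ± 4.55 CPM in scrambled trained and 31.8 ± 1.52 CPM in naive libraries (-0.30 under the label, SE 0.08; edgeR adjusted p = 0.832). Genes of RNA polymerase I, which transcribes the rRNA, were above 0 in 4 of 15 under the Rnf20 label (median -0.03) 12 of 15 after training (median 0.06) and 8 of 15 for Rnf20-labelled against naive libraries (median 0.00).

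Other mRNAs of the TOP class, which the same control of translation covers, were above 0 in 2 of 21 under the Rnf20 label (median -0.11) 17 of 21 after training (median 0.14) and 10 of 21 for Rnf20-labelled against naive libraries (median 0.00). Npm1, a nucleolar chaperone, was at 184 ± 24.6 CPM under the Rnf20 label, 216 ± 29.1 CPM in scrambled trained and 185 ± 14.9 CPM in naive libraries. Vim, an intermediate filament that reactive astrocytes also express, was at 369.8 ± 337, 556 ± 284 and 223 ± 67.1 CPM in the same order. Translation initiation factors were above 0 in 4 of 30 under the Rnf20 label (median -0.06), 22 of 30 after training (median 0.07) and 15 of 30 for Rnf20-labelled against naive libraries (median 0.00), among them Eif4a1, the helicase that unwinds mRNA, at 265 ± 26.9, 315 ± 38.3 and 259.6 ± 12.6 CPM. Eif4ebp1 had the smallest p of this list after training. Its levels were 9.09 ± 3.37, 12.3 ± 1.94 and 7.62 ± 0.855 CPM in the same order (0.69 after training, SE 0.20, edgeR adjusted p = 0.379). Eif4ebp1 and Eif4ebp2 are counted both in this list and in that of mTORC1 signalling. Genes of mTORC1 signalling were above 0 in 12 of 19 under the Rnf20 label (median 0.06), 8 of 19 after training (median -0.02) and 14 of 19 for Rnf20-labelled against naive libraries (median 0.05). This list mixes Mtor itself with inhibitors of the pathway such as Ddit4, so these counts give the pathway no direction. Ddit4 was at 79.5 ± 12.6 CPM under the Rnf20 label, 82.2 ± 9.39 CPM in scrambled trained and 60.6 ± 3.44 CPM in naive libraries (0.44 after training, SE 0.10; edgeR adjusted p = 0.379).

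Ribosomal proteins of mitochondria, which belong to a separate ribosome, were above 0 in 16 of 71 under the Rnf20 label (median -0.05) 58 of 71 after training (median 0.05) and 37 of 71 for Rnf20-labelled against naive libraries (median 0.00). Mrpl55 was at 21.1 ± 2.67 CPM under the Rnf20 label, 23.3 ± 1.497 CPM in scrambled trained and 19.2 ± 1.37 CPM in naive libraries. In each of these 6 lists 0 genes passed edgeR's test after adjustment, in any contrast. The lists are not independent, since some genes are counted more than once. Npm1 is also in the list of ribosome assembly, and Vim is in both the TOP and the reactive glia list.

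Among the 11 matching symbols that were not members, Rplp2 and Rpl8 had 0 counts, Rpl7a had 1 count over all libraries, Rpl30l1 had 4, Rpl39 had 29, Rps19l2 had 43 and Rpl35a had 48. Rpl39l had 57, Rpl9 had 67, Rpl3l had 86 and Rps29 had 160. Several of these are core ribosomal proteins, and how reads that fit several gene copies were counted is not given in the sources used here, so a count near 0 in the table is not read as an absence of the mRNA. Rps6, Rps14, Rps19, Rps26, Rpl10a, Rpl22 and Rpl23a also fit the pattern but were not among the 81 matching symbols. The deposited counts hold no gene under these names, so they were not analysed here.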

How the data were processed

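The submitters' processing notes name Trim Galore and FastQC for the reads, featureCounts 2.0.1 for counting on Rnor_6.0, and DESeq2. Which aligner, annotation release and strand setting the authors used, and how they treated reads with several matches, is not given in the sources used here. A stranded mRNA kit with 14 cycles of PCR was used, per the labels' protocols. One deposited table holds raw read counts by gene and library. A second deposited table, a normalised signal, equals the first divided by a size factor per library (0 values off at a relative tolerance of 1e-06) and was not used further.

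The fit was made in R 4.3.3 with edgeR 4.0.16: TMM scaling, filterByExpr, 3 group means over 15 libraries, and a robust quasi-likelihood F test on 12 residual degrees of freedom. P-values were adjusted over 14880 genes by the Benjamini-Hochberg method. CPM is computed on TMM-scaled library sizes unless said otherwise. Alternatives used DESeq2 1.42.0, limma 3.58.1 (limma-voom), sva 3.50.0, other scalings and filters, only the compared groups, and each library left out. No 2 libraries agreed within sampling noise (lowest chi-square 6.95 per degree of freedom over 105 pairs).

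The members and lists were chosen with earlier results of these data known, so no list was tested as a set. Named members have listed roles, are among the 3 highest or 3 lowest in a contrast or the 3 most or least abundant, or lie at the abundance threshold. Companion genes given with their levels by group were among the 3 of smallest p after training in their list. From some lists no gene was given. Rpl29, Rpl31, Rps12, Rps18, Rps20, Rpl30 and Rpl19 were chosen after their values were seen. Paralogue ratios used counts plus 0.5. The scripts were tested on simulated data. Gene lengths were not used.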

Additional observations from a re-analysis of the deposited data

Results flagged for a closer look

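In each of the 3 groups, 32 named members, 6 paralogue ratios and 4 measures of the members' share of counts were examined, 126 sets of 5 libraries in all. In 9 sets the highest library's gap to its neighbour, as a part of the group's range, passed the 95% critical value of Dixon's test. That value marks about 1 in 20 groups by chance when the sets are independent, and here they are not, since the members vary together. In Rnf20-labelled replicate 18, Rpl5 stood at 443 CPM (329.9 to 359 CPM in the rest of its group), Rpl4 at 817 CPM (578 to 634 CPM), Rpl22l1 at 95.8 CPM (59.1 to 68.7 CPM) and Rps27l at 36.1 CPM (10.1 to 15.3 CPM). The same library held 2.89 CPM of Rpl10l (0.750 to 1.20 CPM) and 2.58 CPM of Rps18l1 (0.991 to 1.44 CPM), and 16.7 counts of Rps27l per 100 counts of Rps27 (7.85 to 10.0). Scrambled trained replicate 15 held 2.70 CPM of Rpl10l (0.784 to 1.24 CPM). Naive replicate 11 held 479.6 CPM of Rps16 (285 to 341 CPM). These 7 results were picked because replicate 18 stood apart at the top of its group in them. Its reactive glia genes, summed at 8693 CPM, were also the highest of the group, and a link was not tested.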

How the results depend on the processing

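The count of members past the adjusted threshold was 0 in each contrast under every alternative run, each library left out included. Over all genes DESeq2 called 58 after training, 1 under the Rnf20 label and 1 for Rnf20-labelled against naive libraries, 0 of them members. The members' median after training was 0.14 to 0.28 with a library left out and -0.052 with the reactive glia score as a covariate (large subunit -0.031, small -0.067). Under the Rnf20 label it was -0.22 to -0.024 with a library left out, 0.089 with 1 surrogate variable (large 0.080, small 0.092) and 0.13 with the reactive glia covariate (large 0.12, small 0.13). For Rnf20-labelled against naive libraries, leaving out a library gave -0.0096 to 0.18 (large -0.0026 to 0.18, small -0.019 to 0.18). Without the 3 libraries of low choroid plexus level (scrambled trained replicates 5 and 16, Rnf20-labelled replicate 20) the medians were -0.033 under the label, 0.16 after training and 0.13 for Rnf20-labelled against naive libraries. Leaving out these 3 libraries was also chosen after seeing the data.

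Some single members changed sign. After training, Rpl17 was 0.011 with upper-quartile scaling, 0.033 with total counts and 0.0022 with the compared groups only; Rpl26 was -0.091 and Rps7 -0.015 with 1 surrogate variable, and -0.024 and -0.028 without the low choroid plexus libraries. With the reactive glia covariate Rps27l was -0.14, Rplp0 -0.040, Rpsa -0.0070, Rpl26 -0.18 and Rps7 -0.055 after training, and Rps27l 0.20 and Rps10l1 0.021 under the Rnf20 label, where 1 surrogate variable gave 0.12 for Rps27l. Against naive libraries, Rps13 was -0.019 by limma-voom, -0.090 without the 4 libraries that lie far out on the first component and -0.042 with the covariate. Rpl7l1 was 1.9e-04 with the compared groups only and 0.030 without the low choroid plexus libraries. With a library left out, the ranges after training were -0.084 to 0.13 for Rpl17, -0.024 to 0.15 for Rpl26 and -0.0096 to 0.14 for Rps7. Under the Rnf20 label they were -0.16 to 0.31 for Rps18l1 and -0.049 to 0.18 for Rps16. Against naive libraries they were -0.26 to 0.11 for Rps10l1, -0.036 to 0.046 for Rpl7l1 and -0.16 to 0.10 for Rps13. The cause was not tested. No paired analysis was possible because the groups share no replicate number. Counts near 10 reads a library limit Rpl38, Rpl10l, Rps18l1 and Rps4y2.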
